A study of Mus musculus with 24 samples.

Results

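The genes of collagens, laminins and their basement membrane partners were followed in RNA-seq and ribosome profiling of mouse hippocampal slices. Members were the genes present in both count tables whose symbol is that of a collagen chain (Col, a number, a, a number) or a laminin chain (Lama, Lamb or Lamc with a number), and in addition Nid1, Nid2, Hspg2, Agrn, Sparc and Fn1. This rule found 61 members among the 23845 genes of the RNA table and the 20436 genes of the table of ribosome-protected fragments (RPFs, or footprints). The 23 basement membrane members were 6 collagen IV chains, 11 laminin chains, the linkers and proteoglycans Nid1, Nid2, Hspg2 and Agrn, and the multiplexins Col15a1 and Col18a1. The 11 fibrillar members were Col1a1, Col1a2, Col2a1, Col3a1, Col5a1, Col5a2, Col5a3, Col11a1, Col11a2, Col24a1 and Col27a1. The other 27 were 9 fibril-associated (FACIT) chains, 8 chains of the collagen VI type or related, 4 transmembrane chains, 4 short-chain or anchoring chains, and the glycoproteins Sparc and Fn1.

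Slices came from male mice of 28 to 42 days on a C57BL/6J background. Tsc2+/- mice carried a deletion of Tsc2 in the germline, made with CMV-Cre and a floxed allele and therefore present in every cell, and the WT mice were their littermates. CA3 was cut off, and slices received vehicle (ACSF) or 100 µM DHPG for 5 min, which activates mGluR1 and mGluR5, with cycloheximide at 100 µg/ml added to all 4 groups afterwards. Each of WT vehicle, WT DHPG, Tsc2+/- vehicle and Tsc2+/- DHPG had 3 RNA and 3 RPF libraries, each from slices pooled over 6 mice, so that p-values measure the spread between such pools. In whole tissue, fewer cells of a type and less RNA per cell cannot be told apart.

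Basement membranes are thin sheets of matrix on which endothelial cells, smooth muscle, pericytes and the astrocyte endfeet of brain vessels rest. Laminin trimers of an α, a β and a γ chain assemble at the cell surface on integrins and dystroglycan, collagen IV trimers form a second network, and nidogens, perlecan (Hspg2) and agrin (Agrn) join the networks. Fibrillar collagens such as collagen I instead pack into long fibrils, which in brain lie mainly in the meninges and around larger vessels. All collagen chains carry Gly-X-Y repeats, in which each repeat begins with glycine, and their mRNAs are translated on the endoplasmic reticulum.

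The coding sequence shows how the fibrillar and collagen IV chains differ. In coding sequences of RefSeq transcripts on GRCm38.p6 (mm10), the longest uninterrupted run of Gly-X-Y repeats was 337 to 344 repeats in the fibrillar chains other than Col24a1 (216) and Col27a1 (217), but 39 to 66 in the 6 collagen IV chains, which broke their repeat region into 22 to 27 runs of at least 5 repeats. Exons of the repeat region in multiples of 9 bases, 1 repeat each, made up 89.6% to 98.1% in fibrillar chains against 44.4% to 64.1% in collagen IV chains. Exons of exactly 54 bases, the unit of fibrillar collagen genes, numbered 21 in Col1a1, 24 in Col1a2, 2 in Col4a1 and 1 in Col4a2. Coding exons of the 4 chains that carry much of the results are printed below, with glycine codons that start a repeat in capitals. Col1a1 is coding exon 39 of 51 (chr11:94947618-94947779, plus strand), Col1a2 is coding exon 40 of 52 (chr6:4533742-4533903, plus strand), Col4a1 is coding exon 25 of 52 (chr8:11226950-11227141, minus strand) and Col4a2 is coding exon 28 of 47 (chr8:11429307-11429528, plus strand).
Col1a1: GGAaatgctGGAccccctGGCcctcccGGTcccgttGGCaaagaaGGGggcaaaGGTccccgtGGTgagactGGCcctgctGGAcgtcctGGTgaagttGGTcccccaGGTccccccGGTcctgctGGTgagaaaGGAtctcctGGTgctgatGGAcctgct
Col1a2: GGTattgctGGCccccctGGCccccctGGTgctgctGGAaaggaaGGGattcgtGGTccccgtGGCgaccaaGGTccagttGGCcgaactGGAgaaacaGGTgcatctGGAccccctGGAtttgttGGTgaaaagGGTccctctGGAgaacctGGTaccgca
Col4a1: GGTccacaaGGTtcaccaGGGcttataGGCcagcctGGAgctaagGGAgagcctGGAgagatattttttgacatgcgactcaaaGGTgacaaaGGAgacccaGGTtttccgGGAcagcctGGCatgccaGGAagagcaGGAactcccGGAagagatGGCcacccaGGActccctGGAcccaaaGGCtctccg
Col4a2: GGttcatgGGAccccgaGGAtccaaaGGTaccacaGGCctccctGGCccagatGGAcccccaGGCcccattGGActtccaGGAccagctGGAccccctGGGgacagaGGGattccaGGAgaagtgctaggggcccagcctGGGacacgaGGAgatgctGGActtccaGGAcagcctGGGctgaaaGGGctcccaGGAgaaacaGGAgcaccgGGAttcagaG
The Col1a1 and Col1a2 exons each held 18 repeats with no break. The Col4a1 exon held 19 glycine codons of such runs with 1 break in their spacing, and the Col4a2 exon, which starts inside a codon, held 22 with 1 break.

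Collagen IV genes lie head to head in pairs. Col4a1 (chr8:11198423-11312889, minus strand) and Col4a2 (chr8:11312805-11449287, plus strand) overlapped by 85 bases at their starts, Col4a3 and Col4a4 on chromosome 1 by 114 bases, and Col4a5 and Col4a6 on chromosome X were separated by 1274 bases. The RefSeq promoter windows of Col4a1 (chr8:11312777-11313076, minus strand) and Col4a2 (chr8:11312555-11312854, plus strand) of 300 bases end just inside a transcript start. They are shown because these genes share their start region and were measured side by side below. Capitals mark a GC box (GGGCGG or CCGCCC) or a CCAAT box (CCAAT or ATTGG), searched on both strands.
Col4a1 promoter: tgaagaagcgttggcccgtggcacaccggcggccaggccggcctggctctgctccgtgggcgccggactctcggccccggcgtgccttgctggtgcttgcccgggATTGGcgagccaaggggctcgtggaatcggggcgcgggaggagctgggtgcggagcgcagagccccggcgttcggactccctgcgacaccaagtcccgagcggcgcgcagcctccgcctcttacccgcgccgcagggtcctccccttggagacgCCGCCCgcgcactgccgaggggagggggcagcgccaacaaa
Col4a2 promoter: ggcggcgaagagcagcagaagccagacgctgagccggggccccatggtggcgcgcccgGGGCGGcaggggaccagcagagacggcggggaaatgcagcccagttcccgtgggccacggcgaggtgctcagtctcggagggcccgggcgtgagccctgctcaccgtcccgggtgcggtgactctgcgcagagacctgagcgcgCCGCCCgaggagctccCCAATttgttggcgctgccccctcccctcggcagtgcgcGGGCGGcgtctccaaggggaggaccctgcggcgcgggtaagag
The windows shared 78 bases. The Col4a1 window held 1 GC box and 1 CCAAT box, and the Col4a2 window held 3 GC boxes and 1 CCAAT box. Of 32851 promoters of the same length, 35.7% held a GC box and 37.4% a CCAAT box. Of the 44 members counted, 28 held a GC box and 15 a CCAAT box in at least 1 of their windows. Promoters were counted by window and members by gene, so these shares are not like for like.

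RNA libraries held 14801679 to 24067838 counts, of which 14956 to 25677 fell on members. RPF libraries held 5296006 to 13613673 counts, of which 6398 to 17647 fell on members. In RPF replicates 2 and 3, 97.9% to 98.5% of nonzero counts were even, against 48.2% to 49.0% in replicate 1. The cause was not tested. RPF counts are given as deposited throughout and may overstate the number of fragments in those replicates. A gene was tested only where enough libraries reached about 10 counts, which left 54 members in RNA (23 basement membrane, 9 fibrillar) and 43 in RPF (21 and 7). Members below that limit in both assays were Col2a1, Col24a1, Col9a1, Col6a6, Col28a1, Col10a1 and Col17a1, and those below it only in RPF were Col4a3, Col4a4, Col5a3, Col27a1, Col20a1, Col26a1, Col6a4, Col7a1, Col8a1, Col13a1 and Col23a1. Tsc2 itself was at 186 to 214 normalised counts (CPM, scaled to the library size) in WT RNA and 128 to 137 in Tsc2+/- RNA, and at 123 to 146 and 76.5 to 84.5 CPM in RPF, so the genotype labels held in every library. The RPF library of WT vehicle replicate 1 stood apart for the members. It was the highest of 12 for 21 of 43 members, 10 of them basement membrane and 5 of the 7 fibrillar members, against 17.2% of all 12877 genes. Counts and medians of members in RPF and TE are given also without it for DHPG in WT, genotype in vehicle and the interaction, as are the RPF changes of Col4a1, Col4a2, Hspg2, Col1a1 and Lamb1 for DHPG in WT. The RNA library of Tsc2+/- DHPG replicate 3 was the highest of 12 for 17 of 54 members, against 10.3% of all genes, and RNA counts and medians for DHPG in Tsc2+/-, genotype in DHPG and the interaction are given also without it. Counts at an unadjusted p in these and other refits are given without the share of all genes, and some without direction. They therefore cannot be read against a background.

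Sparc, a collagen-binding glycoprotein secreted by astrocytes and endothelium, was by far the most abundant member per length, at 150 CPM per kb in RNA and 647 in RPF. Agrn followed in RNA at 20.7 CPM per kb, then the transmembrane collagen Col25a1 at 11.3, which is made by neurons. Among the network-forming chains the order of RNA levels was Col4a1 (7.17 CPM per kb), Col4a2 (6.69) and Lamc1 (6.45), then Lamb2 (4.18) and Lamb1 (4.04). Col4a1 ranged from 42.5 to 60.2 CPM over the 12 RNA libraries and Col4a2 from 38.3 to 50.5. Lama2, the α chain with the most RNA, was at 1.24 CPM per kb. Thus α2, β1, β2 and γ1 were the leading chains of each laminin type, and α1 was the lowest laminin at 0.102 CPM per kb. Nid1 (1.38), Nid2 (0.765) and Hspg2 (0.563) were lower than Col4a1, Col4a2 and Lamc1.

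Within collagen IV the pairs were unequal. Col4a5 was at 0.712 CPM per kb and Col4a6 at 0.141, and Col4a4 (0.0453) and Col4a3 (0.0382), the chains of kidney and lung basement membranes, were near the limit of detection. Col4a3 ranged from 0.0451 to 0.798 CPM and Col4a4 from 0 to 0.886 CPM over the RNA libraries, which is a few counts each. Of the fibrillar members, Col11a2 had the highest RNA level at 3.25 CPM per kb, followed by Col1a2 (1.68) and Col1a1 (1.16), the chains of collagen I, and the 8 others were below 1 CPM per kb. The median over tested members was 0.630 CPM per kb for basement membrane and 0.370 for fibrillar genes in RNA, and 1.56 and 0.906 in RPF. The median spread over the 12 libraries (coefficient of variation) was 21.2% and 21.4% in RNA. In RPF it was 23.5% for basement membrane and 39.1% for fibrillar members. Col1a1 and Col1a2 were highest in WT vehicle replicate 1, at 26.5 and 30.5 CPM in RPF. The cause of the wider fibrillar spread was not tested.

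**Figure D1:**
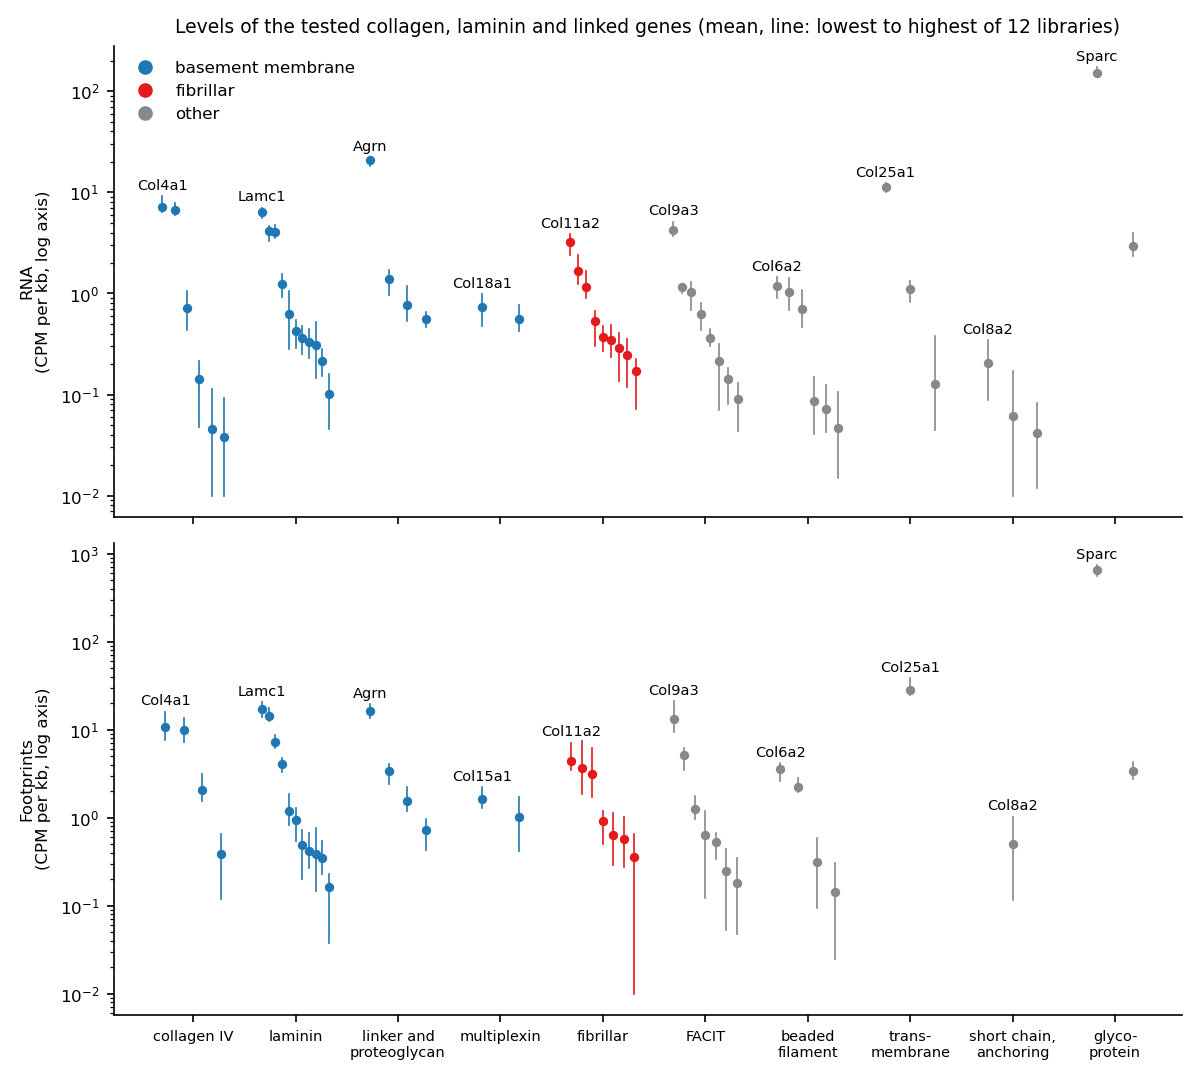
Mean level of each tested member in RNA and RPF in CPM per kb on a log axis, by class, with a line from the lowest to the highest of 12 libraries (values under 0.01 are drawn at 0.01). Sparc, Agrn and Col25a1 lie highest in RNA, and within the collagen IV class Col4a1 and Col4a2 lie highest and Col4a3 and Col4a4 lowest.

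Footprints per RNA was the RPF level per kb of counted coding sequence over the RNA level per kb of transcript. This ratio is a relative density, not a number of ribosomes per mRNA, and it depends on how much of the transcript is coding. In WT vehicle its median was 2.16 for 21 basement membrane members, 2.34 for 7 fibrillar members and 2.28 for 12453 genes (geometric mean of 3 libraries per gene), so neither group stood off from the middle of all genes. Basement membrane members themselves ranged widely. Lamb1 was at 3.93 and Lamc1 at 2.88, Col4a1 and Col4a2 at 1.87 and 1.64, Hspg2 at 1.54, and Agrn at 0.803 (0.939, 0.631 and 0.873 in the 3 libraries). The lowest values were those of Lamb3 (0.474) and Col22a1 (0.647), and the highest those of Col6a5 (6.26), Lama1 (5.15) and Sparc (4.58). Apart from Sparc, these extremes rested on few counts. Lamb3, Col22a1 and Col6a5 averaged 10.75, 9.33 and 19.9 RPF counts, and Col6a5 and Lama1 averaged 13.75 and 19.75 RNA counts. Col6a5 ranged from 3.80 to 9.97 over the 3 libraries. With coding length for both assays Sparc was at 1.47, Lama1 at 4.97 and Col6a5 at 5.29. By the first measure Sparc lay at the 83.0th percentile of all genes, Lamb1 at the 77.3rd, Col1a1 at the 70.4th, Col4a1 at the 39.9th and Agrn at the 10.5th. For fibrillar members the range was 1.55 (Col3a1) to 3.40 (Col1a1). When coding length was used for both assays, the medians were 1.73 and 1.71.

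After DHPG in WT slices most members had fewer footprints than in vehicle, while most had slightly more RNA. In RPF, 36 of 43 members were lower in WT DHPG than in WT vehicle, with a median log2 fold change of -0.19, where the median of all genes was -0.00. All 4 tested collagen IV chains (median -0.31), 9 of 11 laminins (-0.19) and 7 of 7 fibrillar members (-0.35, from -0.70 to -0.15) were on the lower side. Without WT vehicle replicate 1 it was 27 of 43 at a median of -0.11, with 14 of 21 basement membrane members (-0.20) and 7 of 7 fibrillar members (-0.20) lower. Collagen IV chains were then lower in 3 of 4 cases (-0.25) and laminins in 8 of 11 (-0.26). No member passed an adjusted p of 0.1 in RPF (edgeR quasi-likelihood test, two-sided, Benjamini-Hochberg over all genes), where 0.0311% of all genes did. At an unadjusted p under 0.05, 9 of 43 members (20.9%) were lower and 0 higher, against 2.92% and 3.79% of all genes. Without WT vehicle replicate 1 the count was 7 lower and 1 higher, with the share of all genes in that fit not given here. DESeq2 and ComBat followed by DESeq2 each called 1 member, Col4a1, and of the genes to which they gave an adjusted p they called 0.221% and 1.66%. Where these tools called 0 members in other comparisons, their shares of all genes are not given, so that 0 has no background beside it.

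Col4a1, the collagen IV chain with the most RNA, had the smallest p of these. Its footprints were at 79.4, 43.9 and 66.6 CPM in replicates 1, 2 and 3 of WT vehicle and at 49.4, 37.4 and 46.4 CPM in WT DHPG. The DHPG libraries lay lower as a group, but the highest of them was above the lowest vehicle library. The log2 fold change was -0.49 (SE 0.115, edgeR adjusted p = 0.239), and it was -0.44 without WT vehicle replicate 1. Its RNA went the other way, at 43.6, 45.4 and 42.7 CPM in WT vehicle and 49.0, 48.3 and 56.5 CPM in WT DHPG, and these groups did not overlap (log2 fold change 0.22, SE 0.0795, edgeR adjusted p = 0.719). Col4a2, its partner in the α1α1α2 trimer, was at 69.3, 45.9 and 50.6 CPM in RPF of WT vehicle and 43.7, 45.7 and 46.9 CPM in WT DHPG. Here the vehicle range rested on replicate 1, and the log2 fold change was -0.27 (SE 0.114, edgeR adjusted p = 0.674), or -0.20 without that replicate.

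TE, taken as the change in RPF less that in RNA, gave the single call among the members. Of all genes 0.0548% (7 of 12785) were called for DHPG in WT, and of the members 1 of 43, Col4a1, whose TE fell by 0.72 on the log2 scale (SE 0.144, edgeR adjusted p = 0.0630, lower in 3 of 3 same-numbered pairs). Its footprints per RNA were 2.43, 1.29 and 2.08 in WT vehicle and 1.35, 1.03 and 1.096 in WT DHPG. Replicate 2 of vehicle lay within the DHPG range, and the other 2 vehicle libraries lay above it. The call was lost without the RPF library of WT vehicle replicate 1 (log2 fold change -0.65, edgeR adjusted p = 0.351), without the replicate block (-0.73, adjusted p = 0.677) and with the trend in GC content and length removed (-0.52, adjusted p = 0.542). The direction held in each of these.

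TE of the members as a group was lower in WT DHPG for 36 of 43 (median -0.32), for 18 of 21 basement membrane members (-0.32) and for 7 of 7 fibrillar members (-0.56, from -0.95 to -0.19). Among the classes, 4 of 4 collagen IV chains (-0.42) and 10 of 11 laminins (-0.32) were on the lower side, but only 2 of 4 linkers and proteoglycans (-0.04). With p under 0.05 before adjustment, 9 members (20.9%) were lower and 0 higher, against 4.66% and 4.40% of all genes. Those 9 were Col4a1, Col1a1, Hspg2, Col18a1, Lamc1, Lamb1, Col4a2, Col6a3 and Col1a2, which is 6 basement membrane and 2 fibrillar members and Col6a3, whose RPF counts averaged 11.3. Without the RPF library of WT vehicle replicate 1, 31 of 43 were lower (median -0.21), with 16 of 21 basement membrane (-0.32) and 7 of 7 fibrillar members (-0.40), and 8 passed that p. With the trend in GC content and length removed, 31 of 43 were lower (-0.16) and 3 passed it. Shares of all genes in these fits are not given here.

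**Figure D2:**
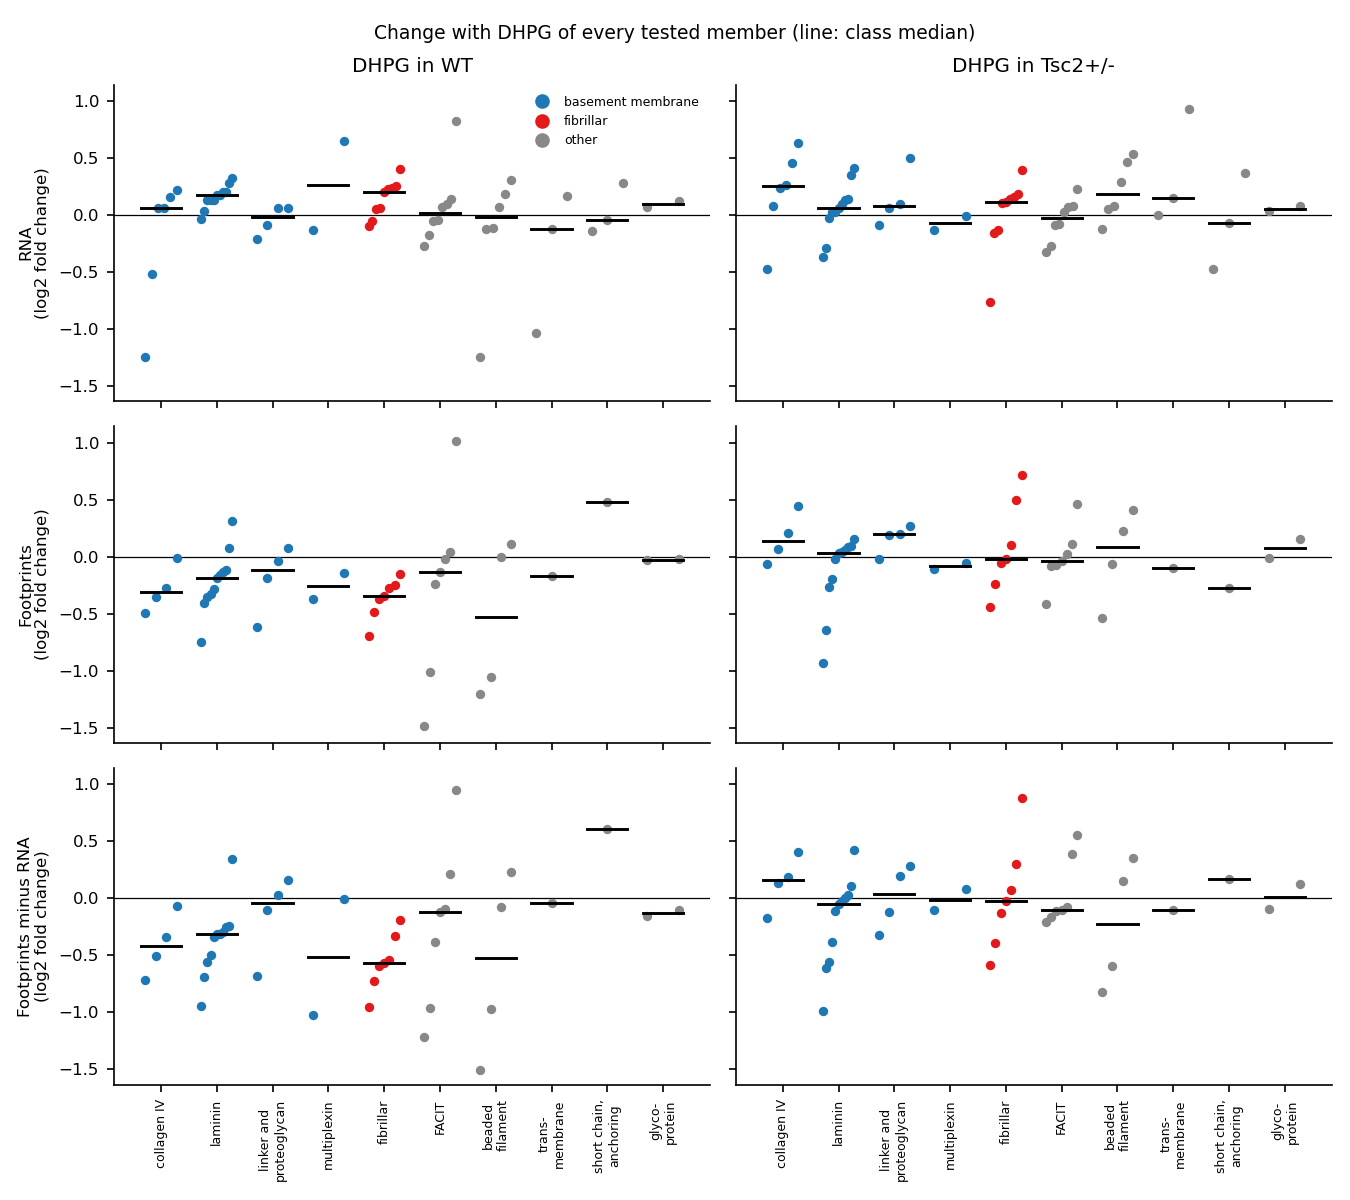
Log2 fold change after DHPG of each tested member by class, in RNA, in RPF and as RPF minus RNA (rows), in WT and in Tsc2+/- (columns), with a line at each class median and colours for basement membrane, fibrillar and other members. In WT the collagen IV, laminin and fibrillar medians lie below 0 in RPF and in RPF minus RNA, and in Tsc2+/- the collagen IV medians lie above 0 in both (0.14 and 0.16), with the laminin and fibrillar medians between -0.05 and 0.03.

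Hspg2, which encodes perlecan, a heparan sulphate proteoglycan of vessel walls, had footprints of 12.7, 10.04 and 9.51 CPM in WT vehicle and 8.37, 6.84 and 5.57 CPM in WT DHPG. The groups did not overlap (log2 fold change -0.62, SE 0.194, edgeR adjusted p = 0.506, and -0.56 without WT vehicle replicate 1). Its RNA lay at 7.13, 7.34 and 7.97 CPM against 8.20, 6.59 and 8.76 CPM, which overlapped. Col1a1, the α1 chain of collagen I, had footprints of 26.5, 14.3 and 12.6 CPM in WT vehicle against 15.3, 13.4 and 8.87 CPM in WT DHPG, and vehicle replicate 1 stood well above the other 5 (log2 fold change -0.49, SE 0.158, edgeR adjusted p = 0.517). Its TE was -0.72 (SE 0.225, edgeR adjusted p = 0.247). Without that library the Col1a1 values were -0.37 in RPF and -0.60 in TE. Lamb1, the laminin β1 chain, lay at 77.2, 69.5 and 82.6 CPM in RPF of WT vehicle and at 66.2, 65.96 and 68.9 CPM in WT DHPG. This difference was small but without overlap (log2 fold change -0.19, SE 0.0909, edgeR adjusted p = 0.731, and -0.26 without WT vehicle replicate 1). In all, 5 members (Hspg2, Lamb1, Lama1, Lama5 and Col9a2) had 3 DHPG libraries below 3 vehicle libraries and 0 had them above, where 3.96% and 5.00% of all genes did. Lama1 and Col9a2 rested on averages of 26.1 and 10.1 counts.

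**Figure D3:**
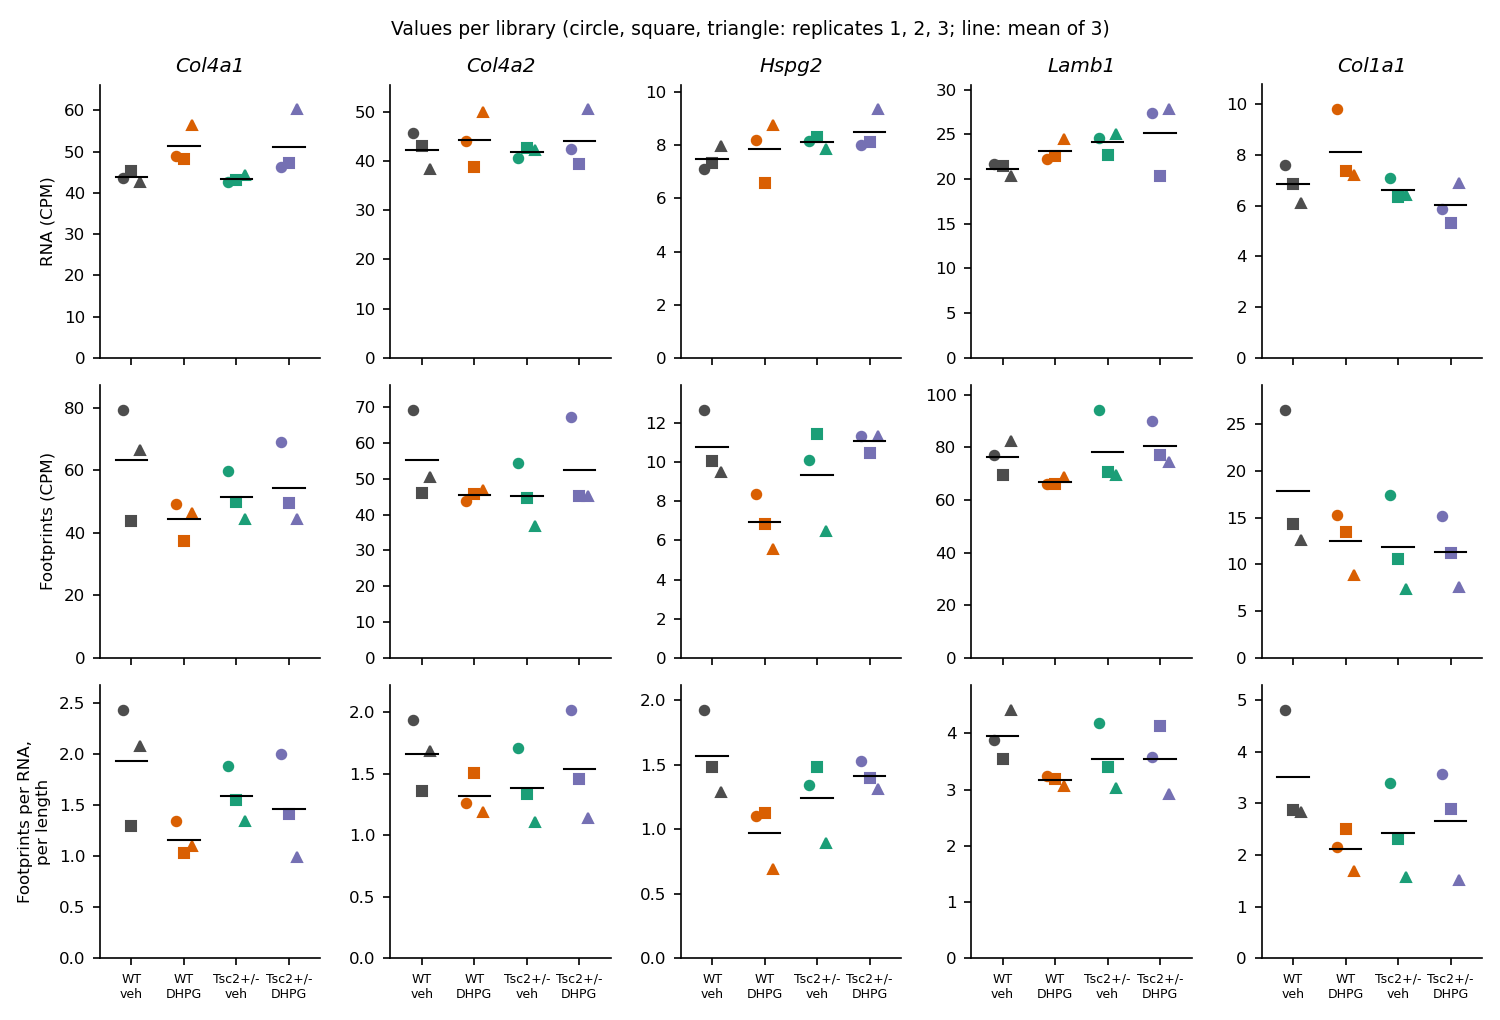
RNA CPM, RPF CPM and footprints per RNA of Col4a1, Col4a2, Hspg2, Lamb1 and Col1a1 in each of the 4 groups, with a circle, square and triangle for replicates 1, 2 and 3 and a line at the mean. The WT DHPG libraries sit below WT vehicle in RPF for Hspg2 and Lamb1 without overlap, and in RPF WT vehicle replicate 1 is the highest point for Col4a1, Col4a2, Hspg2 and Col1a1.

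In RNA, edgeR called no member and no gene at all for DHPG in WT (0% of 14516). DESeq2 and ComBat with DESeq2 also called 0 members, with their own shares of all genes not given here. Members were on the higher side in 35 of 54 cases (median log2 fold change 0.07), with 10 of 11 laminins among them (0.17). Before adjustment, at p under 0.05, 3 members (5.56%) were higher and 0 lower, against 3.70% and 2.75% of all genes. These were Col18a1, Col4a1 and Lama2, all of the basement membrane. Col18a1, the source of endostatin, was at 3.70, 3.34 and 2.66 CPM in WT vehicle and 5.23, 5.15 and 4.78 CPM in WT DHPG, so that all 3 DHPG libraries were higher (log2 fold change 0.65, SE 0.230, edgeR adjusted p = 0.712). Among the members, 7 had non-overlapping higher DHPG libraries and 0 lower ones, against 5.43% and 4.92% of all genes.

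In Tsc2+/- slices, members were divided evenly between higher and lower footprints after DHPG. In RPF, 22 of 43 members were lower and 21 higher, with medians of -0.01 over members, 0.04 over basement membrane members and -0.02 over fibrillar members. By edgeR 0 members were called, as were 0% of all genes, and at an unadjusted p under 0.05 there were 0 members on either side, where 2.15% of all genes were higher and 1.88% lower. DESeq2 and ComBat with DESeq2 called 0 members. Col4a1 footprints were at 59.9, 49.9 and 44.5 CPM in Tsc2+/- vehicle and at 69.1, 49.7 and 44.6 CPM in Tsc2+/- DHPG, which overlapped almost wholly (log2 fold change 0.07, SE 0.116, edgeR adjusted p = 1). Hspg2 lay at 10.1, 11.4 and 6.48 CPM and at 11.3, 10.5 and 11.3 CPM (0.27, SE 0.190, edgeR adjusted p = 1). The Col1a1 footprints were 17.4, 10.6 and 7.37 CPM in vehicle and 15.2, 11.2 and 7.55 CPM in DHPG. These, too, differed by less than their spread (-0.06, SE 0.170, edgeR adjusted p = 1).

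TE after DHPG in Tsc2+/- had 0 members called by edgeR and 0 by DESeq2 (0% of all genes by edgeR), with 24 of 43 members lower at a median of -0.05. At an unadjusted p under 0.05, 0 members were higher and 1 lower (Col6a1, a collagen VI chain), against 1.89% and 1.77% of all genes. The RNA of members was again on the higher side, in 36 of 54 at a median of 0.08, with 0 members called by edgeR, DESeq2 or ComBat with DESeq2 and 0% of all genes by edgeR. In RNA, 3 members (Col4a1, Col6a1 and Nid2) were higher and 1 (Col4a5) lower at an unadjusted p under 0.05, against 2.16% of all genes in each direction. Without Tsc2+/- DHPG replicate 3, 26 of 54 were higher (median -0.00) and 1 member was higher and 0 lower at that p. Col4a1 RNA was at 42.5, 43.1 and 44.2 CPM in Tsc2+/- vehicle and 46.2, 47.2 and 60.2 CPM in Tsc2+/- DHPG. As in WT, the groups did not overlap (log2 fold change 0.24, SE 0.0782, edgeR adjusted p = 1), but replicate 3 of DHPG stood above the other 2, and without it the change was 0.13.

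The interaction tests whether the DHPG change differed between genotypes. In RPF it was on the positive side, meaning a less negative or more positive change in Tsc2+/- than in WT, for 33 of 43 members (median 0.19), for 16 of 21 basement membrane members (0.22) and for 6 of 7 fibrillar members (0.43). By edgeR 0 members and 0% of all genes were called, and DESeq2 and ComBat with DESeq2 called 0 members. With p under 0.05 before adjustment, 6 members (14.0%) were positive and 0 negative, against 1.86% and 1.95% of all genes. They were Col4a1 (0.56, SE 0.164, edgeR adjusted p = 0.998), Hspg2 (0.89, SE 0.271, edgeR adjusted p = 0.998), Col4a2, Col5a2 (21.7 RPF counts on average), Col6a3 and Lama1. So the difference between genotypes in the DHPG response was not significant for any member after adjustment. Without WT vehicle replicate 1, 25 of 43 were positive (median 0.12), Col4a1 was at 0.50 and Hspg2 at 0.82, and the fibrillar median was 0.16. Without replicate 1 of all groups the median over members was 0.05. At the unadjusted p 7 members passed in the former fit and 2 in the latter. Their direction and the shares of all genes are not given here.

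In TE the interaction was positive for 29 of 43 members (median 0.20), 15 of 21 basement membrane (0.29) and 6 of 7 fibrillar (0.52), with 0 members called by edgeR or DESeq2 and 0% of all genes by edgeR. Before adjustment, at p under 0.05, 6 members (14.0%) were positive and 0 negative, against 2.24% and 1.81% of all genes. These were Col5a2, Col4a1, Hspg2, Col1a1, Lamc1 and Col4a2. Without the RPF library of WT vehicle replicate 1, 24 of 43 were positive (median 0.12), as were 14 of 21 basement membrane (0.26) and 4 of 7 fibrillar members (0.19), and 5 passed that p. The direction of these 5 and the share of all genes are not given here. In RNA, 25 of 54 members were positive (median -0.01), and 0 were called by any of the 3 tools (0% of all genes by edgeR). There, 2 members (Nid2 and Col13a1) were positive and 1 (Col18a1) negative at an unadjusted p under 0.05, against 1.76% and 1.70% of all genes. Without Tsc2+/- DHPG replicate 3, 34 of 54 were negative (median -0.07), and 0 members were positive and 3 negative at that p.

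The genotype comparison in vehicle used the same 3 WT vehicle libraries as the DHPG comparison in WT, so the values of both move with them. Footprints were lower in Tsc2+/- vehicle than in WT vehicle for 27 of 43 members (median -0.09). All 7 fibrillar members were lower (-0.43), whereas basement membrane members were mixed, with 14 of 21 lower (-0.06). By edgeR 0 members were called, against 0.0233% of all genes, and DESeq2 and ComBat with DESeq2 called 0. At an unadjusted p under 0.05, 7 members (16.3%) were lower and 0 higher, against 3.17% and 3.38% of all genes. They were the fibrillar Col1a1, Col1a2 and Col5a1 (16.4 RPF counts on average) and the basement membrane members Col4a1, Col4a2, Col4a6 (15.6) and Lama1. Without WT vehicle replicate 1 the counts were 3 lower and 2 higher, 22 of 43 were lower (median -0.03) and 5 of 7 fibrillar members were lower (-0.36). The shares of all genes in that fit are not given here.

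Col1a1 had the smallest p in this comparison. With 26.5, 14.3 and 12.6 CPM in WT vehicle and 17.4, 10.6 and 7.37 CPM in Tsc2+/- vehicle, each Tsc2+/- library was below the WT library of the same number but the ranges overlapped (log2 fold change -0.58, SE 0.162, edgeR adjusted p = 0.434). It was -0.46 without WT vehicle replicate 1. The Col1a1 RNA lay at 7.60, 6.84 and 6.10 CPM against 7.07, 6.35 and 6.41 CPM. Thus the RNA ranges nearly coincided. TE in vehicle was lower in Tsc2+/- for 29 of 43 members (median -0.09) and for 7 of 7 fibrillar members (-0.53), with 0 members called by edgeR or DESeq2 and 0% of all genes by edgeR. With p under 0.05 before adjustment, 2 members (Col1a1 and Col5a1) were lower and 0 higher, against 3.06% and 2.71% of all genes. Without WT vehicle replicate 1 there were 0, and without its RPF library 24 of 43 members (median -0.03) and 5 of 7 fibrillar members (-0.41) were lower.

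In vehicle the RNA of members was balanced between the genotypes. Of 54 members 24 were higher in Tsc2+/- (median -0.02), 0 were called by edgeR, DESeq2 or ComBat with DESeq2, and 0.0896% of all genes were called by edgeR. Before adjustment, at p under 0.05, 1 member (Lama2) was higher and 1 (Lamc3) lower, against 2.60% and 2.30% of all genes. Lamc3, the laminin γ3 chain, was at 3.43, 4.49 and 3.45 CPM in WT vehicle and 2.82, 2.46 and 2.57 CPM in Tsc2+/- vehicle, without overlap (log2 fold change -0.55, SE 0.222, edgeR adjusted p = 0.983). Averaged over treatments it was -0.44 (SE 0.155, edgeR adjusted p = 0.581) and lower in 6 of 6 same-numbered pairs.

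Between the DHPG-treated groups, which share the WT DHPG libraries with the DHPG comparison in WT, basement membrane footprints lay more often on the higher side in Tsc2+/-. In RPF, 27 of 43 members were higher (median 0.06), with 15 of 21 basement membrane members (0.13) but only 2 of 7 fibrillar members (-0.16). By edgeR 0 members were called, against 0.0155% of all genes, and DESeq2 and ComBat with DESeq2 called 0. At an unadjusted p under 0.05, 4 members (9.30%) were higher (Hspg2, Lamb1, Col4a1 and Col5a2), against 2.08% of all genes, while 2.05% of all genes were lower. Hspg2 was at 8.37, 6.84 and 5.57 CPM in WT DHPG and 11.3, 10.5 and 11.3 CPM in Tsc2+/- DHPG. The 3 Tsc2+/- libraries lay close together, all above the WT libraries (log2 fold change 0.68, SE 0.192, edgeR adjusted p = 1). Lamb1 was at 66.2, 65.96 and 68.9 CPM against 89.9, 77.0 and 74.3 CPM, again without overlap (0.26, SE 0.0901, edgeR adjusted p = 1). Without replicate 1 of all groups, 2 members were higher at that p and the median over members was -0.02.

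TE between the DHPG-treated groups was higher in Tsc2+/- for 28 of 43 members (median 0.19) and 17 of 21 basement membrane members (0.22). Of fibrillar members only 3 of 7 were higher (-0.27). By edgeR or DESeq2 0 members were called, and by edgeR 0% of all genes. With p under 0.05 before adjustment, 5 members (11.6%) were higher and 0 lower, against 1.50% and 1.53% of all genes, namely Col5a2, Hspg2, Lama5, Col4a5 and Col4a1. In RNA, 26 of 54 members were higher and the median was -0.00, with 0 members called by any of the 3 tools and 0.0482% of all genes by edgeR. Before adjustment, at p under 0.05, 3 (5.56%) were higher (Nid2, Col6a1 and Col25a1) and 2 (3.70%) lower (Col4a5 and Col1a1), against 2.28% and 2.36% of all genes. Without Tsc2+/- DHPG replicate 3 it was 3 higher and 6 lower, with 24 of 54 members higher (median -0.04). The shares of all genes in that fit are not given here. Nid2, a nidogen, was at 3.37, 2.60 and 3.22 CPM in WT DHPG and 5.03, 3.89 and 5.85 CPM in Tsc2+/- DHPG (log2 fold change 0.68, SE 0.212, edgeR adjusted p = 0.724). All 3 Tsc2+/- libraries were higher, and the change was 0.56 without Tsc2+/- DHPG replicate 3. Col4a5, the collagen IV α5 chain encoded on the X chromosome, was at 6.95, 3.71 and 5.44 CPM against 4.14, 3.12 and 2.84 CPM (-0.67, SE 0.208, edgeR adjusted p = 0.710). Here the groups overlapped by 1 library.

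Averaged over genotypes, DHPG left 0 members called in RNA, RPF or TE by edgeR, where 0.0207%, 0.0311% and 0.0469% of all genes were called. DESeq2 called Col4a1 in TE, where it called 1.06% of all genes, and ComBat with DESeq2 called it in RNA, where it called 6.95%, and both called 0 members in the rest. At an unadjusted p under 0.05, 2 of 54 members were higher and 0 lower in RNA, against 4.07% and 3.42% of all genes. In each of RPF and TE 0 of 43 were higher and 5 (11.6%) lower, against 4.14% and 2.68% of all genes in RPF and 4.43% and 4.07% in TE. Col4a1 RNA was higher in 6 of 6 same-numbered pairs (log2 fold change 0.23, SE 0.0558, edgeR adjusted p = 0.353), and its TE was lower in 5 of 6 (-0.44, SE 0.102, edgeR adjusted p = 0.133). Averaged over treatments, genotype left 0 members called in all 3 by edgeR, against 0.227%, 0.0621% and 0% of all genes. ComBat with DESeq2 called Sparc in RNA, where it called 1.12% of all genes, and DESeq2 called 0 members. At an unadjusted p under 0.05 there were 3 higher and 5 lower members of 54 in RNA, against 3.05% and 3.07% of all genes. Of 43 there were 2 and 3 in RPF, against 3.18% and 3.46%, and 2 and 2 in TE, against 2.07% and 2.42%. Sparc RNA was higher by 0.10 on the log2 scale in Tsc2+/- (SE 0.0378, edgeR adjusted p = 0.672), and Col1a1 footprints were lower in 6 of 6 pairs (-0.37, SE 0.116, edgeR adjusted p = 0.535).

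Summed over each set in CPM, without scaling to length, the 23 basement membrane members took more of every library than the 11 fibrillar members. The sets differ in number and length of genes, so these sums do not compare levels per gene. Agrn alone averaged 158 CPM in RNA. In RNA the basement membrane sum was 409, 410 and 356 CPM in WT vehicle, 426, 395 and 442 in WT DHPG, 406, 389 and 392 in Tsc2+/- vehicle and 415, 388 and 452 in Tsc2+/- DHPG. In RPF it was 611, 457 and 533 CPM, 479, 452 and 477, 570, 483 and 445, and 593, 486 and 477 in the same order. The WT DHPG libraries were closest together, and the vehicle ranges enclosed most of the others. The fibrillar RNA sum ranged from 39.3 to 58.2 CPM over the 12 libraries. The fibrillar RPF sum was 113, 68.5 and 53.6 CPM in WT vehicle, 67.6, 60.8 and 51.9 in WT DHPG, 72.2, 56.7 and 50.1 in Tsc2+/- vehicle and 73.5, 54.2 and 45.3 in Tsc2+/- DHPG. It was highest in replicate 1 of each group, and the WT vehicle library of that number lay far above the rest.

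The RPF to RNA ratio of the sums was 1.37 ± 0.221 (SD, n = 3) in WT vehicle and 1.12 ± 0.0323 in WT DHPG for basement membrane members, and 1.58 ± 0.454 and 1.12 ± 0.0732 for fibrillar members. In Tsc2+/- vehicle and Tsc2+/- DHPG it was 1.26 ± 0.135 and 1.25 ± 0.186 for basement membrane, and 1.22 ± 0.175 and 1.11 ± 0.260 for fibrillar members. The fibrillar ratios were 2.11, 1.28 and 1.37 in replicates 1, 2 and 3 of WT vehicle, so that their mean and spread rested on replicate 1, and 1.16, 1.17 and 1.04 in WT DHPG. The laminin sum had ratios of 2.19, 1.96 and 2.59 in WT vehicle and 1.80, 1.83 and 1.82 in WT DHPG, without overlap. The collagen IV ratios, 1.75, 1.03 and 1.49 against 1.03, 1.06 and 0.928, overlapped, as did those of linkers and proteoglycans, 0.833, 0.573 and 0.750 against 0.675, 0.667 and 0.622. The fibrillar sum was 0.110 to 0.136 of the basement membrane sum in RNA and 0.0951 to 0.185 of it in RPF over the 12 libraries.

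**Figure D4:**
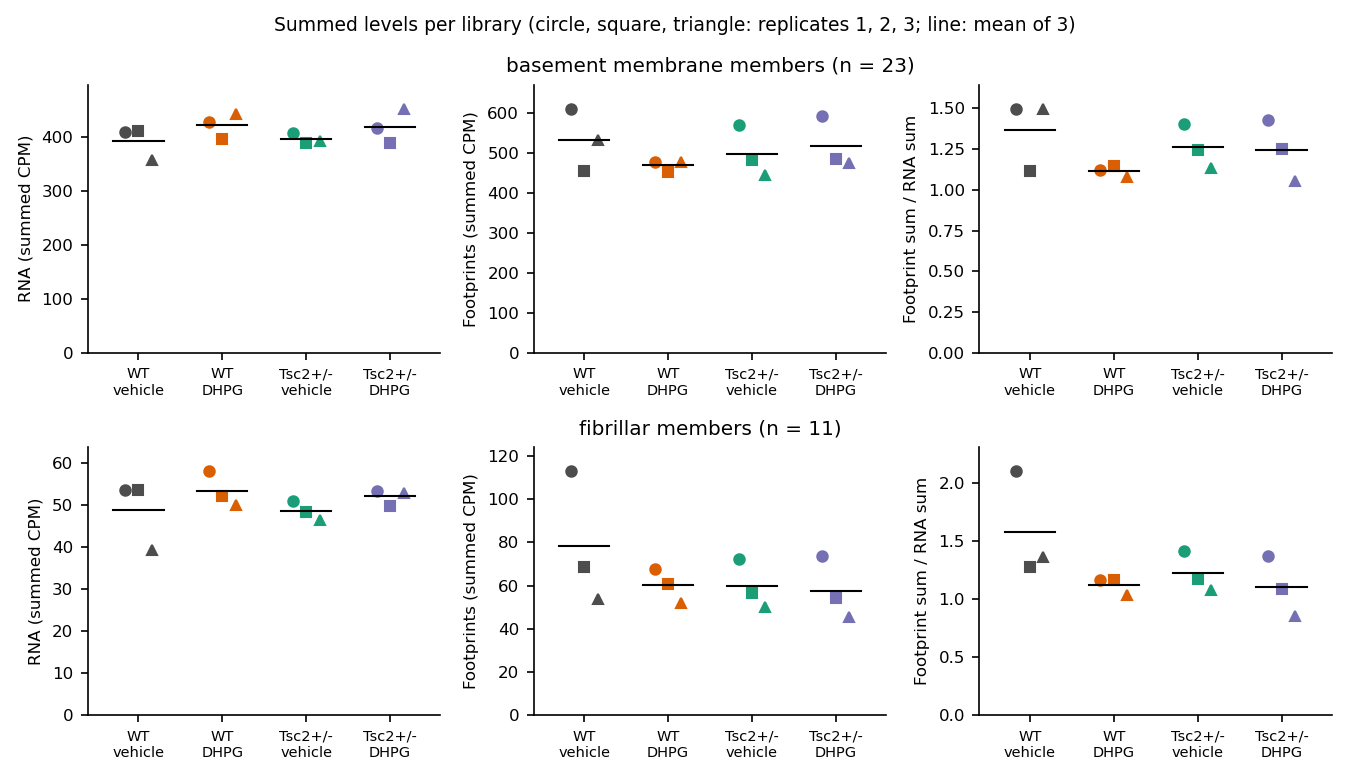
Summed RNA CPM, summed RPF CPM and their ratio for the 23 basement membrane and the 11 fibrillar members in each library of the 4 groups, with a line at the group mean. The basement membrane RPF sum is 611 CPM and the fibrillar one 113 CPM in WT vehicle replicate 1, and the WT DHPG ratios lie close to 1.12 in both sets.

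Markers of the cells that make these matrices were measured beside them. The 14 endothelial markers summed to 312, 300 and 259 CPM in RPF of WT vehicle and 275, 276 and 267 CPM in WT DHPG, and all 14 passed the limit for testing. With DHPG in WT, 10 of 14 endothelial markers were on the lower side in RPF (median -0.09), as were 8 of 9 tested mural markers (-0.09) and 5 of 11 tested fibroblast and meningeal markers (0.03). The mural sum was 217, 220 and 159 CPM against 192, 192 and 175 CPM, and the fibroblast and meningeal sum was 301, 331 and 256 CPM against 306, 350 and 309 CPM. Ranges of these sums overlapped between the groups, and 0 of these markers were called. Before adjustment 3 of 14 endothelial markers (Tek, Flt1 and Cdh5, at -0.89, -0.30 and -0.26), 1 mural marker (Notch3, -0.68) and 0 fibroblast and meningeal markers were lower in RPF at p under 0.05, and 0, 0 and 1 were higher. Of all genes 2.92% were lower and 3.79% higher at that p. The 6 dentate gyrus markers were lower between the DHPG-treated groups, at 42.1, 44.2 and 47.8 CPM of RNA in WT DHPG and 23.1, 29.5 and 25.2 CPM in Tsc2+/- DHPG, without overlap. In RNA, 11 of 14 endothelial markers were on the lower side in Tsc2+/- both in vehicle (median -0.11) and in DHPG (-0.18), with 0 called. The 4 tested blood markers were all on the lower side in both (-1.20 and -1.35). Their sum was 26.8, 20.9 and 23.0 CPM in WT vehicle, 35.2, 22.3 and 16.3 in WT DHPG, 16.5, 2.59 and 14.1 in Tsc2+/- vehicle and 5.51, 5.04 and 17.7 in Tsc2+/- DHPG. The haemoglobin gene Hbb-bt was called between the DHPG-treated groups (log2 fold change -4.46, edgeR adjusted p = 0.0453). The part of these differences in the values of the members was not tested. Markers of neurons, CA1, astrocytes, microglia, oligodendrocytes and their precursors all passed, and CA1 markers summed to 1759 to 1952 CPM in RNA.

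The genes that fold, secrete and receive these proteins were read as lists beside the members. Of enzymes and chaperones of collagen synthesis, such as prolyl and lysyl hydroxylases, 30 were tested in RNA and 29 in RPF, and 0 were called in any comparison by edgeR. Their footprints lay on both sides. With DHPG in WT, 12 of 29 were lower in RPF (median 0.02), 0 passed an unadjusted p of 0.05, and the TE median was 0.00 with 14 of 29 lower. Of 16 tested integrins, dystroglycan and other matrix receptors, 0 were called. With DHPG in WT, 14 of 16 receptors were on the higher side in RNA (median 0.12), 11 of 16 on the lower side in RPF (-0.09) and 12 of 16 on the lower side in TE (-0.21). With p under 0.05 before adjustment, 3 receptors were lower and 0 higher in TE, against 4.66% and 4.40% of all genes. They were Sdc3, a syndecan (-0.30, edgeR adjusted p = 0.220), Dag1, the laminin receptor dystroglycan (-0.23, edgeR adjusted p = 0.350), and Itga7, an integrin chain, all named after their values were seen. In RPF at that p, Sdc3 (-0.22) and Itga7 (-0.29) were lower and Cd44 (0.38) was higher, against 2.92% and 3.79% of all genes. In Tsc2+/- the TE of 12 of 16 receptors was also on the lower side after DHPG (median -0.13). Of 15 matrix proteases and their inhibitors, 0 were called, and with DHPG in WT 7 of 15 were lower in RPF (median 0.00). The inhibitor Timp2 had the smallest p there and was on the higher side (0.25, edgeR adjusted p = 0.366).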

How the data were processed

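RNA and RPF libraries of hippocampal slices, 12 of each, were grouped by genotype and treatment from the labels, and 0 columns were left without a sample. The authors trimmed adapters with cutadapt and low-quality bases with Trimmomatic, removed rRNA and tRNA with Bowtie2, mapped to mm10 with TopHat2, kept unique reads, collapsed duplicates by molecular identifier and counted with RSEM, and the submitters' processing notes also name DESeq2. The files hold expected counts of each gene as deposited, in whole numbers. RNA was counted over whole transcripts and RPF over coding sequence less 60 nt at its ends together, so long coding sequences collect more reads. Levels between single genes are compared per kb, but sums over sets and markers are in CPM without scaling to length.

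Genes passed filterByExpr at a minimum count of 10 (14516 in RNA, 12877 in RPF, 12785 in both). Library sizes were scaled by TMM, and CPM are counts divided by the scaled library size, as cpm in edgeR gives them. All genes were tested with edgeR 4.0.16 (R 4.3.3) by its robust two-sided quasi-likelihood test fitted to the 12 libraries of each assay with terms for group and replicate, and called at a Benjamini-Hochberg adjusted p under 0.1. TE was tested over 24 libraries as RPF change minus RNA change, and each assay had 7 comparisons. Alternatives used DESeq2 1.42.0, ComBat (sva 3.50.0), RLE scaling, no filter, no block, the lysate as a block, removal of trends with GC content and length (mgcv 1.9.3), a threshold of 0.05, RPF counts of replicates 2 and 3 halved because 97.9% to 98.5% of them were even, and leaving out libraries. The fit without the RPF library of WT vehicle replicate 1, and medians of members under each alternative, were chosen after seeing the data. The procedures were tested on simulated data.

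Sequences, lengths and coordinates came from RefSeq on GRCm38.p6, which matched all 61 members and 23713 of 23870 symbols. Members, marker lists and pathway lists were chosen with earlier results of these data known. Values of members without the RPF library of WT vehicle replicate 1 alone, and those of single members and classes without WT vehicle replicate 1 or Tsc2+/- DHPG replicate 3, were added after seeing the data. Named members were the 3 with most RNA in each class, every called member, and in each assay and comparison up to 2 higher and 2 lower members with the smallest p under 0.01 and the same sign in every same-numbered pair. Collagen IV pairs were named too, and members listed at an unadjusted p under 0.05 outside this rule were named after their values were seen. Because counts limit precision, some members with few footprints are marked by their mean count, but not all of them and not at each mention. Single values of some members are not reported here.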

Additional observations from a re-analysis of the deposited data

How the results depend on the processing

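No called value changed sign under the alternatives run. Of the counts of members called, 149 stayed and 12 moved under alternative settings, and 310 stayed and 12 moved in leave-one-out fits. Of log2 fold changes of named members under settings and in leave-one-out fits, 108 and 246 kept their side of the threshold, 6 and 3 passed it newly, and 4 and 8 lost it. Members called in TE for DHPG in WT, 1 in the report, were 0 at an adjusted p under 0.05, 0 with the lysate as a block (Col4a1 adjusted p = 0.142), 0 with the trend in GC content and length removed (adjusted p = 0.542), and 0 to 2 in leave-one-out fits. The 0 came without WT vehicle replicate 1 (adjusted p = 0.401) or 3 (0.295), without WT DHPG replicate 1 (0.885), 2 (0.153) or 3 (0.144), without replicate number 1 (0.950) or 3 (0.248), and without the RPF library of WT vehicle replicate 1 (0.351). The 2 came without WT vehicle replicate 2, which added Col1a1 (adjusted p = 0.0564). Members called in RPF for DHPG in WT, 0 in the report, were 1 (Col4a1) with DESeq2 (adjusted p = 0.0990), without a filter (0.00981), with ComBat and DESeq2 (0.0213) and with the even RPF counts halved (0.0714), and 0 to 1 in leave-one-out fits, with 1 without WT vehicle replicate 2 (0.0126). For DHPG averaged over genotypes, members called in RNA were 1 (Col4a1) without a filter (0.0569) and with ComBat and DESeq2 (0.00287), and 0 to 1 in leave-one-out fits, with 1 without WT vehicle replicate 2 (0.0627). In TE they were 1 with DESeq2 and 0 to 1 in leave-one-out fits, with 1 again without WT vehicle replicate 2. For genotype averaged over treatments, ComBat and DESeq2 called 1 member in RNA, Sparc. The cause of these moves was not tested.

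Replicate numbers were kept as a block because the study corrected for batch, but they are not shown to pair the libraries. Deviations of same-numbered libraries correlated at 0.0228 to 0.143 in RNA and 0.0330 to 0.263 in RPF, across genes that are not independent, and those of different numbers at -0.126 to 0.0240 and -0.194 to 0.0667. With no replicate block 0 members were called in TE for DHPG in WT (Col4a1 adjusted p = 0.677), and no other count of members called changed.

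Over all alternatives the median of members for DHPG in WT stayed below 0 in RPF (-0.31 to -0.06) and TE (-0.40 to -0.16), and that of the RPF interaction stayed above 0 (0.05 to 0.31). Without Agrn the basement membrane sum averaged 249 CPM in RNA and 412 CPM in RPF with a ratio of 1.66, and without Col11a2 the fibrillar sums averaged 29.5 and 41.6 CPM. Depth limits some RPF values: Col9a2 averaged 10.1 counts a library, Col6a3 11.3 and Lama1 26.1, against 430 for Col4a1.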
